A study of Mus musculus with 24 samples.

Results

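Cells take up fatty acids, esterify them into triglyceride, keep them in lipid droplets and release them again by lipolysis, and 10 genes of this route were followed here in CD8 T cells of the mouse pancreas and blood. They were chosen by role. Cd36 and Fabp5 serve uptake, Plin2 and Plin3 coat droplets, and Dgat1 and Dgat2 make triglyceride. Pnpla2, Lipe and Mgll break triglyceride down, and Lipa degrades lipid in the lysosome. All 10 were among the 24421 gene symbols counted. Libraries are called by their titles, in which P8 marks pancreas and B8 blood. In T cells, fatty acids feed oxidation and membrane synthesis, and memory CD8 T cells are known to draw on lysosomal hydrolysis of stored lipid. Cd36 is known from tumour-infiltrating CD8 T cells as a scavenger receptor for oxidised lipid, and Fabp4 and Fabp5 from tissue-resident memory T cells.

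The cells were sorted as positive for CD45, CD3 and CD8, and total RNA was sequenced in 24 libraries. KC mice develop preinvasive lesions of the pancreas as they grow older and serve as a model of pancreatic cancer. They gave 12 pancreas libraries, 3 at 4 weeks, 2 at 9, 3 at 13, 2 at 20 and 2 at 30 weeks of age. They also gave 9 blood libraries, 2 at 4 weeks, 1 at 9, 3 at 13, 1 at 20 and 2 at 30 weeks. WT B6 mice gave 2 pancreas libraries, of 9 and 30 weeks, and 1 blood library of 30 weeks. The labels give KC without alleles or promoter, and they do not say whether libraries came from separate or pooled animals, so p-values measure the spread between these libraries only.

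Libraries held 6352070 to 16716169 reads in genes (median 9602257). Levels are CPM, counts scaled to the same total in every library, and 3 counts, taken as the limit of detection, corresponded to 0.180 to 0.472 CPM. This limit covers counting error only, since reads are not independent molecules. A gene is named as detected in a library where it had at least 1 count, which can lie under this limit. T cell markers summed to 6274 to 18540 CPM in every library, with Cd4 at 13.3 to 39.5 CPM. Of 8 adipocyte markers, Adipoq, Lep, Plin1 and Cidec were at 0 in all 24 libraries and Retn had 2 counts in 1 library. Lpl was detected in 23 libraries (1022 counts in all), Cfd in 3 (2 counts in KC pancreas and 129 in KC blood) and Fabp4 in 1, Sample_41P8 (136 counts). Acinar markers, from the enzyme-secreting cells of the pancreas, reached 8301 CPM in KC pancreas and 3425 CPM in WT pancreas. The 24 libraries fell into 2 sets of 12 that shared low traces of genes high in 1 library. A trace gene was detected in 92.4% of the other libraries of its own set and in 47.7% of those of the other set. Within a set, the trace was a median of 0.205% of the level in the source library (90th percentile 1.01%), and the median in the other set was 0%. How much of a low value was such a trace was not tested. In KC pancreas, set 1 held the 4- and 13-week libraries and set 2 those of 9, 20 and 30 weeks, so the sets and these age groups cannot be told apart.

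On GRCm38, to which the authors' mm10 build corresponds, the genes lie apart from each other, and GENCODE places them as follows. The uptake genes are Cd36 at chr5:17781690-17888801 and Fabp5 at chr3:10012548-10016607. The coats are Plin2 at chr4:86648386-86670060 and Plin3 at chr17:56277476-56292873. The synthases are Dgat1 at chr15:76502015-76511953 and Dgat2 at chr7:99153658-99182719. The lipases are Pnpla2 at chr7:141455198-141460743, Lipe at chr7:25379527-25398710, Mgll at chr6:88724412-88828360 and Lipa at chr19:34492318-34527474.

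The 10 genes covered a wide range of level. Compared per kilobase of exon, Lipa stood first in KC pancreas and in KC blood, with medians of 24.4 and 27.3 CPM per kb. Its CPM lay at the 91.2 percentile of genes with a median above 0 in KC pancreas and at the 91.6 percentile in KC blood. Pnpla2 followed in KC pancreas with 4.76 CPM per kb, ahead of Plin3 with 1.33, Fabp5 with 0.471, Dgat1 with 0.247, Plin2 with 0.199 and Lipe with 0.0447 CPM per kb. In KC blood the order after Lipa was Plin3 with 2.75, Dgat1 with 2.45, Pnpla2 with 2.04, Plin2 with 0.540, Fabp5 with 0.173 and Lipe with 0.0197 CPM per kb. Cd36, Dgat2 and Mgll had a median of 0 in both. The ranges over libraries of neighbours in these orders overlapped, except that in KC blood the lowest Lipa level, 10.6 CPM per kb, lay above the highest Plin3 level, 6.48 CPM per kb.

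Lipa and Plin2 stood far apart in steadiness. Lipa was detected in all 24 libraries, while 49.7% of the summed CPM of Plin2 came from 1 library. Their 250 bases upstream of the gene start are shown as the regulatory sequence of the steadiest and of 1 patchy member, from RefSeq on GRCm38.p6. Plin2 lies at chr4:86670060-86670309 and Lipa at chr19:34527475-34527724, both on the minus strand and both written 5′ to 3′. Capitals mark matches on either strand to the TATA box in the form TATAAA, the E-box in the form CACGTG, the box with the letters CCAAT, the GC box in the form GGGCGG, and the element of nuclear receptors in the form AGGTCA.
Plin2: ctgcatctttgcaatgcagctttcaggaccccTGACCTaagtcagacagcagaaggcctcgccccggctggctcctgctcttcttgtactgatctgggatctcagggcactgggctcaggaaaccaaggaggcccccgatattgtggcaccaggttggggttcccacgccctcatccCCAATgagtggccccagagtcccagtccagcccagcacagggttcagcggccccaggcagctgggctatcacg
Lipa: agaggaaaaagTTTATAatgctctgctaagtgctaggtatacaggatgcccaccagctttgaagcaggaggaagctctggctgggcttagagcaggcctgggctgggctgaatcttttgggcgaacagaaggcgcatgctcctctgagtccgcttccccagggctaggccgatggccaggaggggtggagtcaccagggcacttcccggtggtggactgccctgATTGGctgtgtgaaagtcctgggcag

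The Plin2 window held a CCAAT box and a nuclear receptor element, and the Lipa window a TATA box and a CCAAT box. Over 32851 such windows of the mouse genome, 33.9% held a CCAAT box, 14.02% a nuclear receptor element, 12.4% a TATA box, 32.7% a GC box and 6.02% an E-box. Windows were found for 7 of the 10 genes, and the first one listed for each was used. Those of Cd36 (chr5:17835897-17836146), Plin3 and Lipe lie inside the GENCODE spans given above, so they are not upstream of the outermost start. The Cd36 window held a CCAAT box, a GC box and a nuclear receptor element, the Plin3 window a CCAAT box and a GC box, and the Lipe window an E-box and a GC box. The Mgll window held an E-box and the Pnpla2 window a GC box. Fabp5, Dgat1 and Dgat2 have no window here. A match describes letters in the window and not a bound site.

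**Figure D1:**
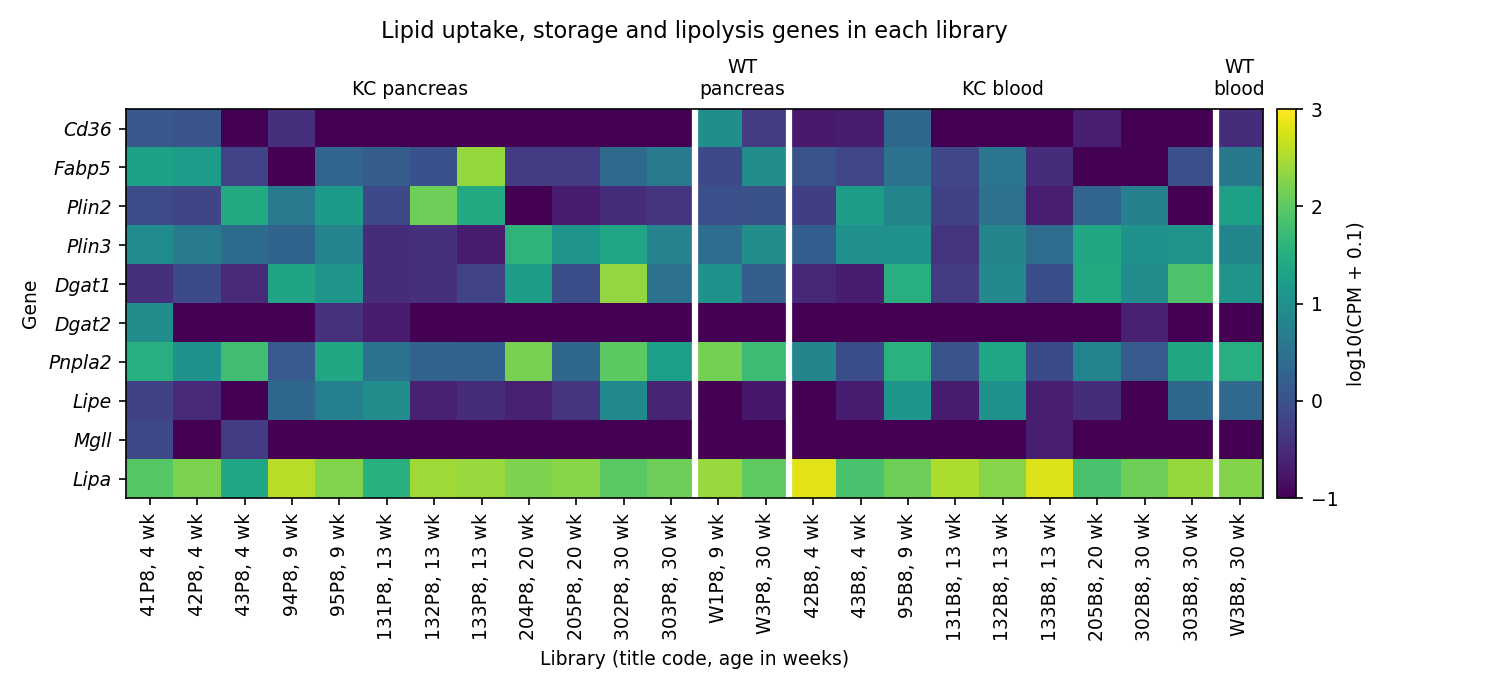
Level of each of the 10 genes (vertical axis, by role) in each of the 24 libraries (horizontal axis, title code and age in weeks), as log10(CPM + 0.1) in colour. Lipa is high in every library, Cd36, Dgat2 and Mgll are at 0 in most, and Fabp5, Plin2 and Dgat1 each have 1 library far above the others.

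Between the tissues, 0 of the 7 genes with enough counts to be tested was called in KC pancreas against KC blood at a Benjamini-Hochberg adjusted p under 0.05 in edgeR's quasi-likelihood test. Of all 11059 genes tested, 10 (0.0904%) were called. At an unadjusted p under 0.05 it was 1 of the 7, Fabp5, against 9.85% of all genes, and DESeq2 called 0 of those to which it gave a p. The median log2 fold change over the 7 was 0.14, against -0.12 over all genes tested, and 4 of the 7 were above 0, against 45.4% of all genes. In such bulk libraries a difference in the number of cells of a type and in the RNA per cell cannot be told apart.

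Fabp5, a cytosolic carrier that hands fatty acids to enzymes and nuclear receptors, had the largest difference. It lay at 0, 1.68 and 234.5 CPM (lowest, median and highest) in KC pancreas, against 0, 0.617 and 3.65 CPM in KC blood. The groups overlapped, and 4 pancreas libraries, Sample_133P8, Sample_41P8, Sample_42P8 and Sample_303P8, exceeded every blood library. The log2 fold change was 3.73 ± 1.34 (SE, n = 12 and 9; edgeR p = 0.00757, adjusted p = 0.285). Without library Sample_133P8, which held 2160 of the 2975 Fabp5 counts of the series, it was 1.87 (adjusted p = 0.759). Within set 1 it was 4.06 (adjusted p = 0.386) and within set 2 it was 1.94 (adjusted p = 0.891). Pancreas was higher than blood in 6 of 9 pairs made up of libraries with the same title number and age, which the labels do not tie to 1 animal. Processed copies of Fabp5 exist in the mouse genome, and how the authors' counting treated reads shared with them is not given in the sources used here.

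Cd36, the cell-surface fatty acid translocase, was near the limit of detection. It was detected in 3 of 12 KC pancreas libraries and 4 of 9 KC blood libraries, with 26 counts in all in each tissue. The limit of 3 counts was reached in 2 of the 12 and in 1 of the 9, and Sample_95B8 held 23 of the KC blood counts. The highest levels were 1.14 CPM in KC pancreas and 2.06 CPM in KC blood. The exact two-sided permutation test of log2(CPM + 0.1) gave p = 0.903, adjusted over the 3 scarce genes to 0.903, and the difference in mean was -0.09 on that scale. Fisher's exact test of the number of libraries with a Cd36 count gave p = 0.397 (two-sided).

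The droplet coats differed in sign in most libraries of the same number. Plin2, which coats cytosolic droplets and is made when cells load lipid, lay at 0, 0.698 and 130.8 CPM in KC pancreas, against 0, 1.90 and 17.5 CPM in KC blood. Pancreas was the higher of the pair in 7 of 9 pairs, yet the fitted log2 fold change was 0.14 ± 1.77 (edgeR adjusted p = 0.991). Within set 1 it was 0.94 (edgeR adjusted p = 0.852) and within set 2 it was -2.51 (edgeR adjusted p = 0.811). Plin3, an exchangeable coat of nascent droplets also known in mannose 6-phosphate receptor transport, lay at 0.109, 5.02 and 39.5 CPM in KC pancreas, against 0.305, 10.4 and 24.5 CPM in KC blood. Pancreas was the higher in 2 of 9 pairs, with a log2 fold change of -0.90 ± 0.99 (edgeR adjusted p = 0.839). Both genes overlapped widely between the tissues, and the difference between the coats was not tested.

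Of the triglyceride synthases, Dgat1, the enzyme of the endoplasmic reticulum that esterifies imported fatty acids, lay at 0.211, 0.755 and 224 CPM in KC pancreas, against 0.103, 7.49 and 75.4 CPM in KC blood. Its medians and its highest values differed in opposite directions, and the log2 fold change was -0.29 ± 1.001 (edgeR adjusted p = 0.964). Dgat2, which acts on fatty acids made in the cell, was a single-library signal: 113 of its 118 counts came from the 4-week KC pancreas library Sample_41P8, at 9.20 CPM. It had a count in 3 of 12 KC pancreas and 1 of 9 KC blood libraries (Fisher's exact test, two-sided, p = 0.603). The limit of 3 counts was reached in 2 of the 12 and in 0 of the 9. The exact two-sided permutation test gave a difference of 0.66 in mean log2(CPM + 0.1) with p = 0.462, adjusted to 0.729. Outside Sample_41P8 it reached the limit of detection in 1 library, Sample_95P8, with 3 counts.

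Among the lipases, Pnpla2, which encodes ATGL and cleaves the first fatty acid from triglyceride, lay at 1.32, 14.4 and 150 CPM in KC pancreas, against 0.695, 6.17 and 36.1 CPM in KC blood. Its log2 fold change was 1.07 ± 1.13 (edgeR adjusted p = 0.825), and 1.78 within set 1 and 1.67 within set 2 (edgeR adjusted p = 0.601 and 0.868). Lipe, the hormone-sensitive lipase of the next step, lay at 0, 0.263 and 9.07 CPM in KC pancreas, against 0, 0.116 and 12.4 CPM in KC blood, with a log2 fold change of 0.75 ± 1.16 (edgeR adjusted p = 0.894). In KC pancreas 6 of 12 and in KC blood 6 of 9 libraries had under 3 Lipe counts. The exons of Lipe overlap those of 4732471J01Rik on the other strand. Strand use in counting is not stated, so it is not known whether reads in the shared exons were counted for Lipe or left out as ambiguous. Mgll, which cleaves the last fatty acid, had 12 counts in 2 KC pancreas libraries and 1 count in 1 KC blood library (exact two-sided permutation test of log2(CPM + 0.1), difference 0.32, p = 0.486, adjusted to 0.729).

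Lipa, the acid lipase that hydrolyses cholesteryl esters and triglyceride in the lysosome, was the only one of the 10 with at least 22.9 CPM in all 24 libraries. It lay at 22.9, 166 and 366 CPM in KC pancreas, against 71.8, 185 and 669 CPM in KC blood. The log2 fold change was -0.54 ± 0.61 (edgeR adjusted p = 0.844), the smallest SE of the 7. It was -2.26 within set 1 and 0.90 within set 2 (edgeR adjusted p = 0.356 and 0.804), so its direction was not shared by the sets.

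**Figure D2:**
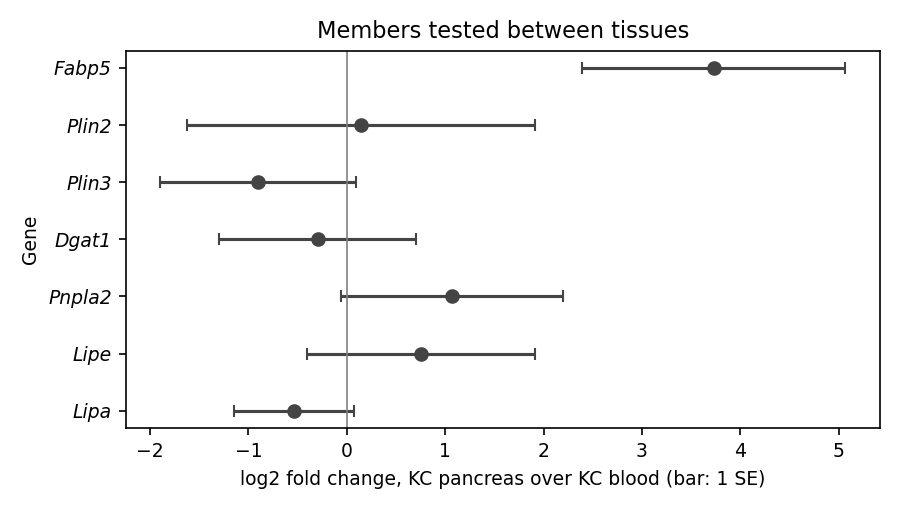
Log2 fold change of KC pancreas over KC blood (horizontal axis, bars of 1 SE) for the 7 genes tested (vertical axis, by role; 12 and 9 libraries). Fabp5 lies farthest from 0 at 3.73, and no gene was called.

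With age in KC pancreas, 3 of the 7 genes tested differed between the 5 ages: Dgat1, Plin2 and Fabp5. This was a test of any difference between ages in edgeR over the 12 libraries, in which 692 of 10552 genes (6.56%) were called, and 24.4% of genes had an unadjusted p under 0.05. Within set 1, Fabp5 and Plin2 were tested and not called, and Dgat1 had too few counts to be tested. Within set 2 all 3 were tested and not called. Each of the 3 calls was lost without 1 library.

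Dgat1 had 0.244, 0.687 and 0.211 CPM at 4 weeks, 21.3 and 11.8 CPM at 9 weeks, 0.221, 0.258 and 0.543 CPM at 13 weeks, 17.6 and 0.824 CPM at 20 weeks, and 224 and 3.15 CPM at 30 weeks. The 4- and 13-week libraries all lay below those of the other ages, by a narrow margin of 7 counts in Sample_42P8 against 8 in Sample_205P8. The share of all genes that split likewise was not counted. Its test between ages gave an adjusted p of 0.0222 in edgeR, and 0.226 without the 30-week library Sample_302P8, which held 1898 of its 4056 counts. Within set 2, which holds 9, 20 and 30 weeks, the edgeR adjusted p was 0.573. As a trend with age, Dgat1 had a slope of 2.17 ± 0.71 log2 units per 10 weeks in KC pancreas (SE, n = 12; edgeR p = 0.00567, adjusted p = 0.290), which was not called. The slope was 0.60 without Sample_302P8 and 1.29 with the set as a term (edgeR adjusted p = 0.940 and 0.829), while DESeq2 called it (2.16, adjusted p = 0.0383), as it did 735 of 9031 genes (8.14%).

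In KC blood, Dgat1 had 0.182 and 0.103 CPM at 4 weeks, 33.6 CPM at 9 weeks, 0.407, 7.49 and 0.811 CPM at 13 weeks, 27.2 CPM at 20 weeks, and 9.14 and 75.4 CPM at 30 weeks. Its slope there was 1.48 ± 0.81 log2 units per 10 weeks (edgeR adjusted p = 0.614). Over both tissues, the 12 KC libraries of set 2 had 0.811 to 224 CPM of Dgat1 and the 9 KC libraries of set 1 had 0.103 to 0.687 CPM, so the ranges did not overlap. The margin was narrow. In set 2, Sample_133B8 had 7 counts (0.811 CPM) and Sample_205P8 had 8 (0.824 CPM), against 7 counts (0.687 CPM) in Sample_42P8 of set 1. How much of these low values was trace was not tested. Of 10960 genes with at least 240 counts, 0.712% had ranges that did not overlap between these sets, and 0.319% were higher in set 2 in that way. Of the 7 members among the 10960, Dgat1 alone had ranges that did not overlap. The WT libraries, all of set 1, lay outside this pattern, with 10.7 and 1.52 CPM in pancreas and 12.3 CPM in blood.

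Plin2 had 0.733, 0.589 and 26.8 CPM at 4 weeks, 4.21 and 14.9 CPM at 9 weeks, 0.663, 130.8 and 27.9 CPM at 13 weeks, 0 and 0.103 CPM at 20 weeks, and 0.236 and 0.315 CPM at 30 weeks. All 4 libraries of 20 and 30 weeks lay below all 8 of the earlier ages, with 0 to 2 counts each. How many of all genes split between ages in this way was not counted. Sample_41P8, Sample_42P8 and Sample_131P8, of the earlier ages, had only 6 to 9 counts. They were of set 1, like Sample_132P8, the library with the highest Plin2, while the 4 later libraries were of set 2. How much of these low values was trace was not tested. The test between ages gave an edgeR adjusted p of 0.0264, and 0.183 without the 13-week library Sample_132P8, which held 1012 of the 2439 counts of the series. Within set 1 (4 and 13 weeks) the edgeR adjusted p was 0.394 and within set 2 it was 0.400. The slope was -3.13 ± 2.45 log2 units per 10 weeks (edgeR adjusted p = 0.839), and DESeq2 called it (-3.54, adjusted p = 0.0093). In KC blood Plin2 was still at 1.90 CPM at 20 weeks and at 5.43 and 0 CPM at 30 weeks, and its slope was -0.91 ± 0.75 (edgeR adjusted p = 0.762). The difference between the slopes of the tissues was -2.22 ± 2.24 (edgeR adjusted p = 0.853).

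Fabp5 had 19.1, 15.5 and 0.527 CPM at 4 weeks, 0 and 1.92 CPM at 9 weeks, 1.44, 0.905 and 234.5 CPM at 13 weeks, 0.409 and 0.412 CPM at 20 weeks, and 2.36 and 4.57 CPM at 30 weeks. One library of 13 weeks and 2 of 4 weeks stood above the others, and the remaining 9 lay at or below 4.57 CPM. The test between ages gave an edgeR adjusted p of 0.0316. It was 0.502 without the 13-week library Sample_133P8 and 0.0510 without the 9-week library Sample_94P8. Within set 1 the edgeR adjusted p was 0.350 and within set 2 it was 0.826. In KC blood Fabp5 never exceeded 3.65 CPM and had too few counts for the test of a trend.

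Markers of other cells were uneven over the libraries in which these genes peaked. The macrophage and monocyte list (16 of 16 genes detected over the KC pancreas libraries together) had a KC pancreas median of 131.4 CPM. It summed to 861 CPM in Sample_302P8, the Dgat1 peak, where Lpl also had its highest level (69.4 CPM). In Sample_132P8, the Plin2 peak, the list summed to 764 CPM. It summed to 13.6 CPM in Sample_133P8, the Fabp5 peak, the lowest of the 24 libraries. Its genes were uneven over the KC pancreas libraries, with 9224 counts of Ctss and 4132 of Apoe. C1qa, C1qb and Fcgr3 had 48, 19 and 8 counts there, so this sum does not speak for its list as a whole either. The ductal list (6 of 8 genes detected over the KC pancreas libraries, median 0.841 CPM) summed to 334 CPM in Sample_133P8, the highest of the 24. Most of its counts over the KC pancreas libraries were Krt18 (3118), with 333 of Epcam and 114 of Muc1. Krt19, Sox9 and Krt8 had 6, 2 and 1, and Krt7 and Cftr 0, so the sum does not speak for the list as a whole. Acinar markers (14 of 15 detected) summed to 1528 to 8301 CPM at 4 weeks, to 0.132 and 0.458 CPM at 9 weeks, to 90.6 to 484 CPM at 13 weeks, to 0.136 and 0.103 CPM at 20 weeks, and to 3.30 and 59.0 CPM at 30 weeks. The part of these cells in the differences between ages was not tested.

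**Figure D3:**
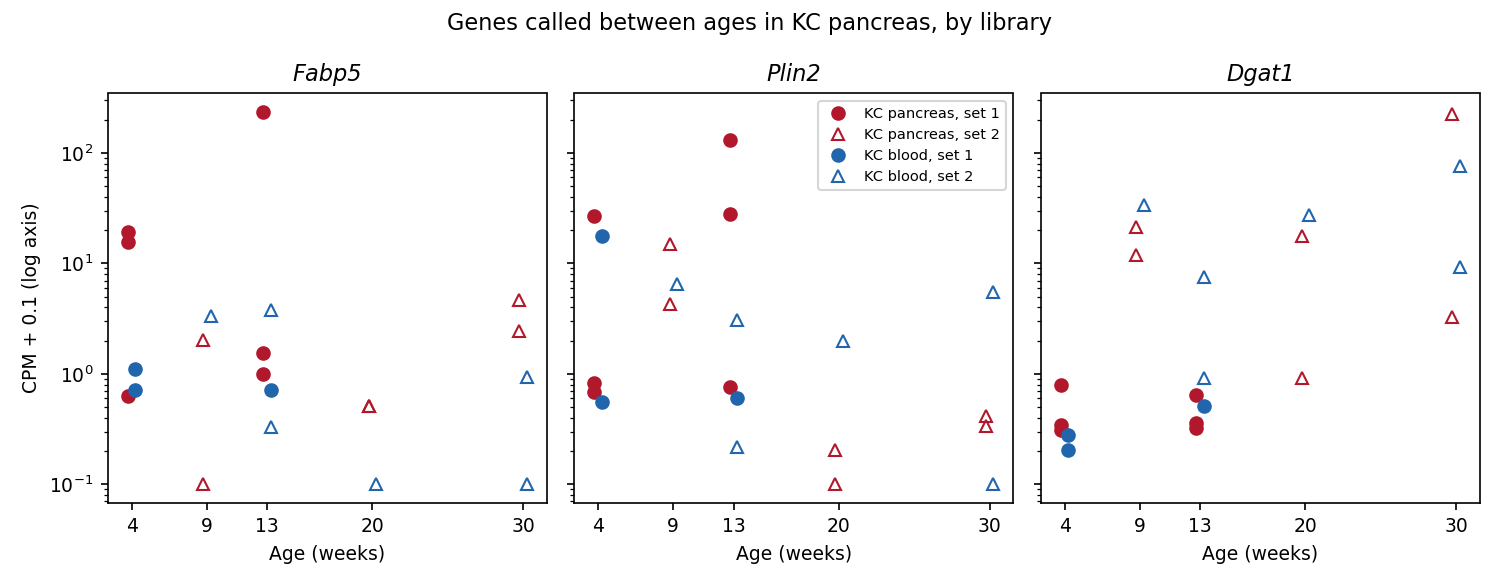
CPM + 0.1 (log axis) of Fabp5, Plin2 and Dgat1 against age in weeks, 1 point per library, in KC pancreas (red) and KC blood (blue), with filled circles for set 1 and open triangles for set 2. Fabp5 and Plin2 peak in set 1 pancreas libraries of 13 weeks at 234.5 and 130.8 CPM. For Dgat1 every triangle lies above every circle, the nearest at 0.811 and 0.687 CPM.

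The other 4 tested genes were not called between ages. Plin3 had 8.63, 4.22 and 2.53 CPM at 4 weeks, 1.84 and 5.95 CPM at 9 weeks, 0.221, 0.258 and 0.109 CPM at 13 weeks, 39.5 and 11.5 CPM at 20 weeks, and 22.2 and 5.83 CPM at 30 weeks. All 3 libraries of 13 weeks lay below the other 9 and had 1 or 2 counts each. The edgeR adjusted p was 0.188, and DESeq2 called the gene (adjusted p = 0.00214), as it did 20.2% of the genes to which it gave an adjusted p. Pnpla2 had 33.4, 10.8 and 58.3 CPM at 4 weeks, 1.32 and 24.3 CPM at 9 weeks, 3.21, 1.81 and 1.63 CPM at 13 weeks, 150 and 2.06 CPM at 20 weeks, and 97.8 and 18.0 CPM at 30 weeks (edgeR adjusted p = 0.300). Its 13-week libraries lay below all of 4 weeks, and the 2 libraries of 20 weeks differed by the largest ratio of any age. For the splits between ages of Plin3 and Pnpla2, the share of all genes that split likewise was not counted.

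Lipa had 87.7, 160 and 22.9 CPM at 4 weeks, 366 and 175 CPM at 9 weeks, 34.3, 271 and 240 CPM at 13 weeks, 171 and 194 CPM at 20 weeks, and 93.7 and 130 CPM at 30 weeks (edgeR adjusted p = 0.482). The ages overlapped, and its slope was -0.01 ± 0.53 log2 units per 10 weeks (edgeR adjusted p = 0.999). Lipe had at most 9.07 CPM, in the 13-week library Sample_131P8, followed by 7.89 CPM in the 30-week library Sample_302P8 and 5.22 CPM in the 9-week library Sample_95P8 (edgeR adjusted p = 0.450).

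As linear trends over 4 to 30 weeks, 0 of 7 genes was called in KC pancreas, where 28 of 9555 genes (0.293%) were called, and 1 of the 7, Dgat1, had an unadjusted p under 0.05, against 8.95% of all genes. The slopes not yet given were 1.12 ± 0.72 for Plin3, 0.73 ± 0.89 for Lipe, 0.63 ± 0.62 for Pnpla2 and -1.42 ± 2.03 for Fabp5, with edgeR adjusted p of 0.753, 0.930, 0.891 and 0.948. In KC blood 0 of 6 genes was called, nor was any of 9933 genes (0.00%) in edgeR, where 870 (8.76%) had an unadjusted p under 0.05 and DESeq2 called 412 genes and 0 members. Lipa had a slope of -0.85 ± 0.47 there (edgeR adjusted p = 0.619). The difference of the trends between the tissues was called for 0 of 7, against 6 of 11059 genes (0.0543%). The smallest edgeR adjusted p among the 7 was 0.799, for Lipa, with 0.86 ± 0.69 log2 units per 10 weeks more in pancreas.

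The scarce genes were found mainly at 4 weeks in KC pancreas. Cd36 had 1.14, 0.981 and 0 CPM at 4 weeks, 0.263 and 0 CPM at 9 weeks, and 0 in all 7 libraries of 13, 20 and 30 weeks. Mgll had 0.652, 0 and 0.421 CPM at 4 weeks and 0 in the 9 later libraries. Dgat2 reached 9.20 CPM in Sample_41P8 at 4 weeks, and outside it had 0.274 CPM in Sample_95P8 and 0.111 CPM in Sample_131P8. With no filter on low counts, edgeR called their slopes, at -2.80 for Cd36, -2.34 for Mgll and -4.06 for Dgat2 (adjusted p = 0.0473, 0.0444 and 0.0372). Without the filter, 686 of 14417 genes (4.76%) were called. These slopes are set against libraries at 0 and are no measure of size. DESeq2 gave none of the 3 an adjusted p, and in the unfiltered edgeR test between ages they had adjusted p of 0.419, 0.459 and 0.123, in the same order. The 4-week libraries were also the KC pancreas libraries with 1528 to 8301 CPM of acinar markers. Fibroblast markers summed to 108 CPM in Sample_41P8, 6.67 CPM in Sample_42P8 and 546 CPM in Sample_43P8. Later KC pancreas libraries had at most 14.8 CPM of them, in Sample_131P8, so Sample_42P8 did not stand apart. The part of either marker list in these values was not tested. Sample_41P8, which held most of Dgat2, had the highest endothelial sum in KC pancreas (247.6 CPM) and the highest B cell sum of the 24 libraries (95.4 CPM). It also held 11.1 CPM of Fabp4, the fatty acid binding protein of adipocytes and capillary endothelium, which had 0 counts in the other 23 libraries. The part of these cells in the Dgat2 value was not tested.

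Between genotypes, 0 of 9 genes tested in pancreas was called in KC against WT at 9 and 30 weeks, where 28 of 12374 genes (0.226%) were called. In that comparison 58.9% of all genes and 6 of the 9 had a log2 fold change above 0, and 5.79% of all genes and 2 of the 9, Cd36 and Lipe, had an unadjusted p under 0.05. The 4 KC libraries of these ages were all of set 2 and both WT libraries of set 1, so genotype and set cannot be told apart. Acinar markers summed to 0.132, 0.458, 3.30 and 59.0 CPM in the KC libraries, against 3425 and 932 CPM in the WT libraries, and their part was not tested.

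Cd36 had 0.263 and 0 CPM at 9 weeks and 0 and 0 CPM at 30 weeks in KC pancreas, against 9.59 CPM at 9 weeks and 0.399 CPM at 30 weeks in WT pancreas. The WT library of 9 weeks, Sample_W1P8, held 101 of the 162 Cd36 counts of the series. The log2 fold change was -5.40 ± 2.70 (edgeR p = 0.0457, adjusted p = 0.861), and it rests on 2 counts in 1 of the KC libraries. Pnpla2 had 1.32 and 24.3 CPM at 9 weeks and 97.8 and 18.0 CPM at 30 weeks in KC pancreas, against 146 CPM at 9 weeks and 55.4 CPM at 30 weeks in WT pancreas. The log2 fold change was -1.94 ± 1.53 (edgeR adjusted p = 0.907), and the KC library Sample_302P8 lay between the WT libraries.

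Dgat1 had 21.3, 11.8, 224 and 3.15 CPM in these KC libraries, against 10.7 and 1.52 CPM in WT pancreas, with a log2 fold change of 3.49 ± 2.12 (edgeR adjusted p = 0.889). At each age every KC library was above the WT library, and the share of all genes for which this held was not counted. The log2 fold change was 0.54 without the 30-week WT library and 6.43 without the 9-week one, and 0.87 without the KC library Sample_302P8. Lipe had 2.10 and 5.22 CPM at 9 weeks and 7.89 and 0.157 CPM at 30 weeks in KC pancreas, against 0 and 0.0798 CPM, or 1 count, in WT pancreas (edgeR p = 0.0402, adjusted p = 0.861). The difference in Lipe is against libraries at or under the limit of detection. The log2 fold changes were -0.70 ± 1.67 for Fabp5, 0.77 ± 1.89 for Plin2, 0.45 ± 1.94 for Plin3 and 0.21 ± 1.07 for Lipa (edgeR adjusted p = 0.9998 in each). Dgat2 was at 0 in both WT libraries and in 3 of these KC libraries, and Mgll was at 0 in all of them.

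In blood at 30 weeks, 0 of 8 genes tested was called in KC against WT, nor was any of 12496 genes (0.00%) in edgeR, where 2.83% had an unadjusted p under 0.05 and DESeq2 called 10 genes and 0 members. The comparison sets 2 KC libraries against 1 WT library, which is assumed to vary like the others. Both KC libraries are of set 2 and the WT library is of set 1, so at this age genotype and set cannot be told apart. Plin2 had 5.43 and 0 CPM in KC blood, against 18.9 CPM in WT blood. Pnpla2 had 1.32 and 24.6 CPM in KC blood, against 32.7 CPM in WT blood, and Fabp5 0 and 0.835 CPM, against 4.07 CPM. All 3 were higher in the WT library, with log2 fold changes of -2.93 ± 2.73, -1.35 ± 2.54 and -3.26 ± 3.09 (edgeR adjusted p = 1 in each). Without Sample_302B8 these were -10.4, -0.41 and -2.27, and without Sample_303B8 they were -1.93, -4.74 and -8.25, in the same order. The share of all genes that were higher in the WT library than in both KC libraries was not counted. With the set as a term, estimated from the other KC libraries, Pnpla2 was at -3.26. Cd36 was at 0 in both KC libraries, against 4 counts in WT blood. Lipa had 129 and 234 CPM in KC blood, against 181 CPM in WT blood, which lay between them. Dgat1 had 9.14 and 75.4 CPM, against 12.3 CPM, Plin3 11.3 and 11.7 CPM, against 6.82 CPM, and Lipe 0 and 2.09 CPM, against 2.21 CPM.

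How far a gene rested on 1 library was measured as the share of its CPM, summed over the 24 libraries, in the highest library. Over 10960 genes with at least 240 counts the median was 23.3% and the middle 50% of genes lay between 15.0% and 37.7%. The 7 members among them had a median of 22.9% and ranged from 13.6% for Lipa to 76.6% for Fabp5. Plin2 had 49.7% in Sample_132P8 and Dgat1 48.7% in Sample_302P8, both above the middle 50%. Plin3 had 19.7% and Pnpla2 20.4%, both in the 20-week KC pancreas library Sample_204P8, and Lipe had 22.9% in the 9-week KC blood library Sample_95B8. The 3 scarcer genes had 94.7% for Dgat2 and 54.8% for Mgll, both in Sample_41P8, and 64.0% for Cd36 in Sample_W1P8.

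**Figure D4:**
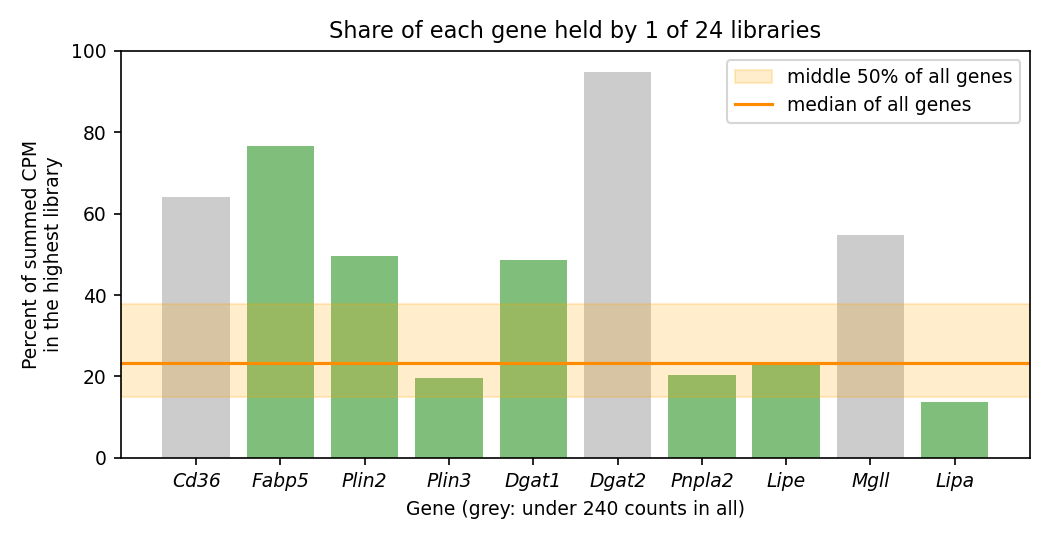
Percent of the summed CPM of each gene that lay in its highest library (bars; 24 libraries; grey for genes under 240 counts), with the median of 10960 genes as a line at 23.3% and their middle 50% as a band. Fabp5 at 76.6%, Plin2 at 49.7% and Dgat1 at 48.7% lie above the band, and Lipa at 13.6% lies below it.

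Of the 4 genes detected in all 24 libraries, the 2 genes most alike over the libraries among 7318 genes detected in all were found by the Pearson correlation of log2(CPM + 1), as a description. The points share depth and trace set. Dgat1 was most like Retsat (r = 0.878, Spearman's rho 0.807) and Zranb1 (r = 0.826, rho 0.890). Pnpla2 was most like Atg16l1 (r = 0.887, rho 0.840). Plin3 was most like Angel2 (r = 0.795, rho 0.773) and Tapt1 (r = 0.782, rho 0.707). For Lipa the closest were Dynll1 (r = 0.689, rho 0.492) and 4930579G24Rik (r = 0.667, rho 0.552), with r = 0.415 and 0.445 without the 2 libraries farthest from the median.

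Other genes of the same route were read from 85 listed genes, of which 83 were counted. Between the tissues 0 of the 50 tested were called, beside 0.0904% of all genes, and 23 had a log2 fold change above 0. Their median was -0.17, against -0.12 over all genes. The smallest p of each role belonged to Abhd6, a monoacylglycerol lipase (-4.00 ± 1.34, adjusted p = 0.245), Asah1, the lysosomal acid ceramidase (-3.93 ± 1.38, adjusted p = 0.267), and Hilpda, an inhibitor of ATGL (2.49 ± 1.26, adjusted p = 0.513), in edgeR. Abhd6 lay at 0.103, 0.703 and 10.9 CPM in KC pancreas, against 0.364, 14.6 and 105 CPM in KC blood. In the remaining roles these were Acsl4, which activates long-chain fatty acids (1.25), Agpat2, which makes phosphatidic acid (-3.24), Slc27a6, a fatty acid transporter (-1.71), and Ppard, a nuclear receptor (1.87), with edgeR adjusted p of 0.545, 0.555, 0.719 and 0.756.

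In the KC pancreas age trend 0 of 47 listed genes tested was called, beside 0.293% of all genes. The smallest p of each role belonged to Lpl, the lipoprotein lipase (1.92 ± 0.59 log2 units per 10 weeks, edgeR adjusted p = 0.235), and Pnpla6, a lysophospholipase (-2.46 ± 0.82, edgeR adjusted p = 0.290). The others were Dbi, which binds acyl-CoA (-1.68), Rxra, the partner of PPAR receptors (-1.66), Lpin2, a phosphatidate phosphatase (1.73), Smpd1, the acid sphingomyelinase (-1.92), and Ldah, a droplet hydrolase (0.76). Their edgeR adjusted p lay between 0.396 and 0.889. Lpl was also the gene behind the highest sum of the adipocyte list, 69.4 CPM in Sample_302P8.

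Between any ages in KC pancreas, 8 of 52 listed genes tested were called in edgeR, beside 6.56% of all genes. They were 4 of 9 in uptake and transport (Cav1, Slc27a6, Lrp1 and Mfsd2a), and 1 each of 10 in glycerolipid synthesis (Agpat2), 5 in droplet assembly (Hsd17b11), 9 among lipolysis regulators and lipases (Pnpla6) and 4 nuclear receptors (Rxra). None was called of 7 acyl-CoA synthetases and binding proteins and of 8 lysosomal genes. Rxra had 103, 73.5 and 374 CPM at 4 weeks and 0.206 to 17.4 CPM in the 9 later libraries (edgeR adjusted p = 0.00761). All 4-week libraries of Rxra thus lay above all later ones, and the share of all genes that did so was not counted.

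Cav1, the caveolin of the plasma membrane, had 127 CPM in the 4-week library Sample_43P8 and at most 2.20 CPM in the other 11 (edgeR adjusted p = 0.00501). Slc27a6 peaked at 173 CPM in the 9-week library Sample_94P8 (edgeR adjusted p = 0.0137), where Mfsd2a, a lysolipid transporter, had its highest level too, 10.5 CPM (edgeR adjusted p = 0.0490). Hsd17b11, a droplet-associated dehydrogenase, had 435 CPM in Sample_132P8, the library with the highest Plin2, against at most 28.6 CPM in the other 11 (edgeR adjusted p = 0.0217). Agpat2 was highest in Sample_132P8 as well, at 27.5 CPM (edgeR adjusted p = 0.0284). Lrp1, a lipoprotein receptor, had 40.8 CPM in Sample_43P8 and 48.1 CPM in Sample_302P8 and at most 1.55 CPM elsewhere in KC pancreas (edgeR adjusted p = 0.0429). Pnpla6 had 60.1 and 56.0 CPM in 4-week libraries Sample_42P8 and Sample_43P8 (edgeR adjusted p = 0.0385). Library Sample_43P8 had the highest sum of fibroblast markers, 546 CPM (7 of 8 genes detected over the KC pancreas libraries together), whose part was not tested. In the blood trend, the difference of trends and both genotype comparisons 0 of 46, 50, 58 and 59 listed genes were called in edgeR, beside 0.00%, 0.0543%, 0.226% and 0.00% of all genes.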

How the data were processed

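Per the labels, CD45+CD3+CD8+ cells of pancreas or blood were sorted and lysed, and an Rneasy Plus Micro kit gave the total RNA. The authors deposited raw read counts per gene symbol and 5 tallies of unassigned reads, which were left out of library sizes. The submitters' processing notes name TopHat, SAMtools, HTSeq, DESeq and mm10; versions, strand setting and annotation are not given in the sources used here. Between 11.7% and 32.5% of tallied reads lay in genes.

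Groups came from the labels. The counts were tested with edgeR 4.0.16 in R 4.3.3 (filterByExpr, minimum count 10, TMM, robust quasi-likelihood F-test, two-sided). A gene was called where its p, adjusted by Benjamini and Hochberg's method, was under 0.05. The SE of a log2 value was its size over the square root of F. Tissue was tested in 21 KC libraries with age as a factor, trends with numeric age, as log2 units per 10 weeks, and KC against WT over 9 and 30 weeks in pancreas and at 30 weeks in blood, with the other ages kept in the fit. The 3 genes below the filter were tested with exact permutation of log2(CPM + 0.1) and Fisher's exact test. Alternatives were DESeq2 1.42.0, RLE factors, no filter, Rn45s and Lars2 left out, other age terms, trace sets and each library left out. The fits were tested on simulated counts.

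Trace sets were made from 95 genes of 14 source libraries with at least 100 CPM in the source and at most 5% of that elsewhere. Exon lengths and overlaps came from GENCODE on GRCm38, and promoters from RefSeq on GRCm38.p6. The genes named were all 10 members, each called gene of the companion list, the gene of smallest p per role in 2 comparisons, and the 2 most alike genes of each member detected everywhere. One gene named by this rule is not reported here. The members and lists were chosen with earlier results of these data known.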

Additional observations from a re-analysis of the deposited data

Results flagged for a closer look

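Within the 9 KC blood libraries, 6 of the 10 genes had 1 library set apart from the rest by the gap test of Dixon, as had 46.9% of the 14472 genes with a count in these libraries. For the 7 members with at least 240 counts in the series it was 3, against 37.8% of such genes. Chance triggers the test in about 1 in 20 groups of normally distributed values, and CPM of genes peaking in single libraries are skewed, so the number among the members is not a result about them. The test was applied to this group alone, and the 12 KC pancreas libraries were not checked with it. The high values were 2.06 CPM of Cd36 in the 9-week library Sample_95B8, 17.5 CPM of Plin2 in the 4-week library Sample_43B8, 24.5 CPM of Plin3 in the 20-week library Sample_205B8 and 75.4 CPM of Dgat1 in the 30-week library Sample_303B8. Dgat2 in Sample_302B8 (0.132 CPM) and Mgll in Sample_133B8 (0.116 CPM) each had 1 count where the other 8 libraries had 0, which is under the limit of detection of 3 counts. The 6 values came from 6 different libraries.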

How the results depend on the processing

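No alternative changed how many members were called between the tissues, in the KC blood trend, in the difference of the trends or between genotypes, where the number was 0 throughout. In the KC pancreas trend it was 3 with no filter on low counts (Cd36, Dgat2 and Mgll) and 2 with DESeq2 (Plin2 and Dgat1), against 0, where 4.76% and 8.14% of all genes were called. Between ages it was 0 of 5 tested within trace set 1, where Dgat1 was not tested, and 0 of 7 within trace set 2, against 3, and 2 to 3 with 1 library left out. DESeq2 gave no p to Fabp5 there. The set could not be a term between ages or between genotypes in pancreas, and Sample_W3B8 could not be left out. The fits within sets, other than between tissues, were chosen after seeing the data.

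Of 343 member values under other settings 290 kept their direction and side of the threshold, and 45 values that were not called turned round in sign. Of 710 values with 1 library left out this was 669 and 37. The cause was not tested. Between tissues, the log2 values were -0.92 for Plin2 and 0.26 for Dgat1 with the set as a term. Within set 2 they were -2.51 for Plin2, 0.14 for Plin3, 0.30 for Dgat1 and 0.90 for Lipa. With no age term they were 0.29 for Plin3 and 0.96 for Dgat1, with age as a number 0.043 for Plin3 and 0.27 for Dgat1, and without the 4-week libraries 0.37 for Lipa. With 1 library left out, Plin2 ran from -1.12 to 1.41, Dgat1 from -1.12 to 0.22 and Lipa from -0.82 to 0.23. For the KC pancreas trend, the set as a term gave 1.65 for Fabp5, -0.40 for Plin3, -0.045 for Pnpla2 and 0.048 for Lipa, and log2 of age gave 0.64 for Fabp5, 0.28 for Plin2 and 0.38 for Lipa. Within set 1 the slopes were 4.32 for Fabp5, 3.83 for Plin2, -4.13 for Plin3, -3.59 for Pnpla2 and 2.45 for Lipa, and within set 2 the slope was 1.12 for Fabp5. With 1 library left out, Lipa ran from -0.26 to 0.33 and Lipe from -0.79 to 1.20.

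For the KC blood trend, Pnpla2 was at -0.039 with RLE factors, -0.033 with DESeq2, -0.41 with the set as a term, -1.60 within set 1 and -0.32 within set 2. Within set 1, Plin3 was at -3.97 and Lipa at 0.21. With 1 library left out, Plin2 ran from -2.54 to 0.077 and Pnpla2 from -1.10 to 0.34. For the difference of trends, Fabp5 was at 1.51 with the set as a term, 4.33 within set 1 and 2.49 within set 2. Within set 1, Plin2 was at 7.74, Plin3 at -0.037 and Pnpla2 at -1.86, and within set 2 Lipa was at -0.076. With 1 library left out, Fabp5 ran from -0.82 to 1.10, Dgat1 from -0.90 to 1.33 and Lipe from -0.078 to 3.36. For KC against WT blood, Lipa was at 0.16 with RLE factors and with DESeq2, and the set as a term gave -1.73 for Plin3, -0.028 for Dgat1 and 0.88 for Lipa. With 1 library left out, Dgat1 ran from -0.56 to 2.62 and Lipa from -0.62 to 0.36. For KC against WT pancreas, the ranges were -1.45 to 3.0 for Plin2, -0.21 to 0.79 for Plin3, 0 to 2.92 for Dgat2, -4.15 to 0.27 for Pnpla2 and -0.47 to 0.54 for Lipa.

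Title numbers are shared by 9 pairs of KC libraries. In 7 pairs that could be checked, the deviations of both libraries from their group means correlated at -0.057 to 0.0095, so the numbers are no pairing shown by the data. With the number as a replicate block, 0 members were called between tissues (Fabp5 2.23, edgeR adjusted p = 0.970), and the difference of trends was 1.502 for Fabp5 and -0.93 for Dgat1. Of all genes, 14 were called between tissues with the block, against 10, and 0 in the difference of trends, against 6.

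Counts of called genes over the whole table moved more than those of the members. Between tissues they ran from 2 (set 2 alone) to 487 (DESeq2), against 10. In the KC pancreas trend they were 0 with the set as a term, 686 with no filter and 735 with DESeq2, against 28. In the KC blood trend they reached 412 with DESeq2 against 0, and in the difference of trends 343 with DESeq2 against 6. Between ages they were 0 within set 1, 62 within set 2, 1746 with no filter and 1738 with DESeq2, against 692. Between genotypes they were 175 in pancreas and 10 in blood with DESeq2, against 28 and 0. Depth limits Cd36, Dgat2, Mgll and Lipe, which were under 3 counts in 14 to 22 of the 24 libraries.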
